A study of Mus musculus with 28 samples.

Results

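The V segments of the T cell receptor were described across sorted Treg cells of the spleen and of glioblastoma (GBM). Members were chosen by name, as every row of the expression table whose symbol begins with Trav or Trbv followed by a number. This gave 163 of 53801 rows, of which 128 were α and 35 were β V segments. All 163 matched a gene of the GENCODE M21 annotation of GRCm38, the assembly also called mm10. The 128 α segments lie at chr14:52427928-53977678, where 108 are annotated as functional and 20 as pseudogenes. The 35 β segments lie at chr6:40891229-41558452, with 22 functional segments and 13 pseudogenes. The α segments are related in sequence, and 73 of their 128 names carry a letter d or n, which marks copies in duplicated blocks of the locus.

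Each αβ T cell assembles its receptor from 1 V segment and 1 J segment of the α locus, and from 1 V, a D and a J segment of the β locus, joined to the constant gene of each chain. The V segment carries the first and second loops that contact peptide and MHC, while the third loop, CDR3, begins at a conserved cysteine near the end of the V segment. A population of many clones therefore transcribes many V segments, and a population of few clones transcribes few, so V segment RNA is commonly read as a coarse measure of clonal breadth.

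The series holds bulk RNA-seq of cells sorted as TCR+CD4+CD25hi CD127lo, with CD8+ cells gated out, from mice that carried CT2A, a murine GBM cell line, in the forebrain. C57BL/6 mice of both sexes were used in the study, and age is not given in the sources used here. Once tumors were established, mice received 4 doses, every 3 days, of an IgG2a isotype control or of αPD1 + αGITR, antibodies to the checkpoint receptor PD1 and to the co-stimulatory receptor GITR, at 250 µg per mouse, and tissue was taken 2 days after the last dose. Values were available for 7 splenic libraries of the IgG2a arm and 8 of the αPD1 + αGITR arm, and for 5 and 7 GBM libraries of these arms. By the submitters' design text, each came from a spleen or tumor of a different mouse. The paper, however, counts 5 and 7 animals in these arms, and numbers recur in the labels within a tissue. All 4 groups thus come from tumor-bearing mice, and no group is of naive mice. Libraries are called by their label, such as tumor_369_a, or without the tissue, such as 79_a, and levels are in TPM, the usual depth-scaled measure of transcripts, which is also scaled for gene length. Read depth and the number of cells sorted per library are not given in the sources used here, so an entry of 0 is described as listed at 0, without a detection limit.

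Markers of the sorted cells were present in all libraries: Foxp3, the defining transcription factor of Treg cells, ranged from 21.5 to 364 TPM in spleen and from 116 to 440 TPM in GBM. Trdc, the constant gene of the δ chain, stayed at or below 0.69 TPM. Of the 27 libraries, 5 stood apart. The splenic libraries 72_b, 79_a and 79_d had less than 200 TPM over the 3 constant genes Trac, Trbc1 and Trbc2 together. The GBM library tumor_369_a of the IgG2a group had 7702 genes above 1 TPM, the fewest of all, and the GBM library 79_a of that group had 1374 TPM of the myeloid gene Lyz2. Values without these 5 libraries are given beside most of the group comparisons.

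The ends of the coding sequences of 14 segments, from the GENCODE M21 transcripts, show what the reads had to tell apart. Each sequence is the last 60 coding bases, 5′ to 3′, and capitals mark the first in-frame cysteine codon (TGT or TGC, coding strand only) within the final 24 bases. All 130 functional segments, 100% of them, hold such a codon there, followed by 7 to 18 bases before the segment ends. The 5 β segments with the highest mean share of β V transcripts are shown first. They lie at chr6:41048769-41048828, chr6:40891826-40891885, chr6:41121773-41121832, chr6:41178989-41179048 and chr6:41062744-41062803, all on the plus strand.
Trbv3: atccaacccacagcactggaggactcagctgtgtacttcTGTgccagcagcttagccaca
Trbv1: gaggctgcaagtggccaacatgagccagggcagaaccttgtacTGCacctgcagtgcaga
Trbv13-2: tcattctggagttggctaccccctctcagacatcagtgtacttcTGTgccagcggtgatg
Trbv19: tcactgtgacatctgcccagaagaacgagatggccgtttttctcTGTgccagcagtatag
Trbv5: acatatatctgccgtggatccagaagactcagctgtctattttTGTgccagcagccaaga
Next are the β segments Trbv12-1, at chr6:41114008-41114067, and Trbv31, at chr6:41557693-41557752, whose values in GBM were mostly below those in spleen. Trbv31 is the 1 member on the minus strand, downstream of the constant genes, and joins by inversion.
Trbv12-1: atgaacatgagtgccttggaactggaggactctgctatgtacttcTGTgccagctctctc
Trbv31: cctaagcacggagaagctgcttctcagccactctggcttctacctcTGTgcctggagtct
The α segment with the highest mean share, Trav7-2, at chr14:53391083-53391142, is followed by 3 α segments that were higher in GBM than in spleen after αPD1 + αGITR. These are Trav7-4, at chr14:53461679-53461738, Trav13d-1, at chr14:52851807-52851866, and Trav21-dv12, at chr14:53876693-53876752.
Trav7-2: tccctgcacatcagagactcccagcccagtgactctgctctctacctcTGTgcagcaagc
Trav7-4: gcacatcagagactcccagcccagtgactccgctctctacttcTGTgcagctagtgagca
Trav13d-1: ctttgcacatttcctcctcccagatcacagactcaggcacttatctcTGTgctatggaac
Trav21-dv12: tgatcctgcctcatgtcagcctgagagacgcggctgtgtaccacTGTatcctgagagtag
The last set shows copies, at chr14:52972979-52973038, chr14:53284116-53284175 and chr14:53666447-53666506.
Trav3d-3: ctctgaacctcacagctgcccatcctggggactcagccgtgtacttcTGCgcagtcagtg
Trav3n-3: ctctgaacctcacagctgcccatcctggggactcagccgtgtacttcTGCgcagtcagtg
Trav3-3: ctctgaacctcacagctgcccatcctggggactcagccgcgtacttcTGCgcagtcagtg

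Trav3d-3 and Trav3n-3 have the same 343 coding bases, and the table gives them the same TPM in every library, so the table does not tell them apart. Trav3-3 differs from them at 4 of 343 bases, 1 of which is in the stretch shown. Over the table, 17 pairs of α segments had the same sequence, which for 2 pairs of pseudogenes was that of the transcript and for the others the coding sequence. Among segments listed above 0 in any library, 15 pairs had the same values in every library within 0.01 TPM, and 13 pairs had both. Trav14d-1 and Trav14n-1 are such a pair, as are Trav6d-6 and Trav6-6. Trav7-4 differs from Trav7d-4 at 2 of 341 bases, and Trav13d-1 from Trav13n-1 at 1 of 331, so how the α signal is split among such copies is uncertain. No pair of β segments had the same sequence, and none that was listed above 0 in any library had the same values.

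Of the 128 α segments 118 were above 1 TPM in at least 1 library, and of the 35 β segments 27 were. The 10 α and 7 β segments that were at 0 throughout were 15 pseudogenes and the functional segments Trav7n-6 and Trav11. No V segment was above 1 TPM in all 27 libraries. The most widespread α segments, the identical pair Trav4d-4 and Trav4n-4, passed 1 TPM in 22 libraries, and the most widespread β segment, Trbv13-2, in 25. Pseudogenes held between 0% and 12.6% of the α V signal of a library, with a median of 1.09%, and at most 5.12% of the β V signal. All V segments together made up between 0.01% and 0.26% of the TPM of a library.

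The balance between the chains was the measure that separated the tissues. The sum of the α V segments divided by that of the β V segments was lowest at 0.369, 0.513 at the median and highest at 0.803 in splenic Treg cells after IgG2a. After αPD1 + αGITR it was 0.382, 0.635 and 1.78 in spleen. In GBM Treg cells after IgG2a the libraries 77_a, 76_a, 78_a, 79_a and tumor_369_a gave ratios of 1.87, 2.71, 3.58, 3.75 and 10.95. In GBM Treg cells after αPD1 + αGITR the lowest, median and highest ratios were 1.98, 2.85 and 4.71. Every GBM library therefore lay above every splenic library, although the highest splenic library, 72_b, lay close to the lowest GBM library, 77_a. Without the libraries that stand apart, the next highest splenic ratio was 1.196, in 74_a.

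**Figure D1:**
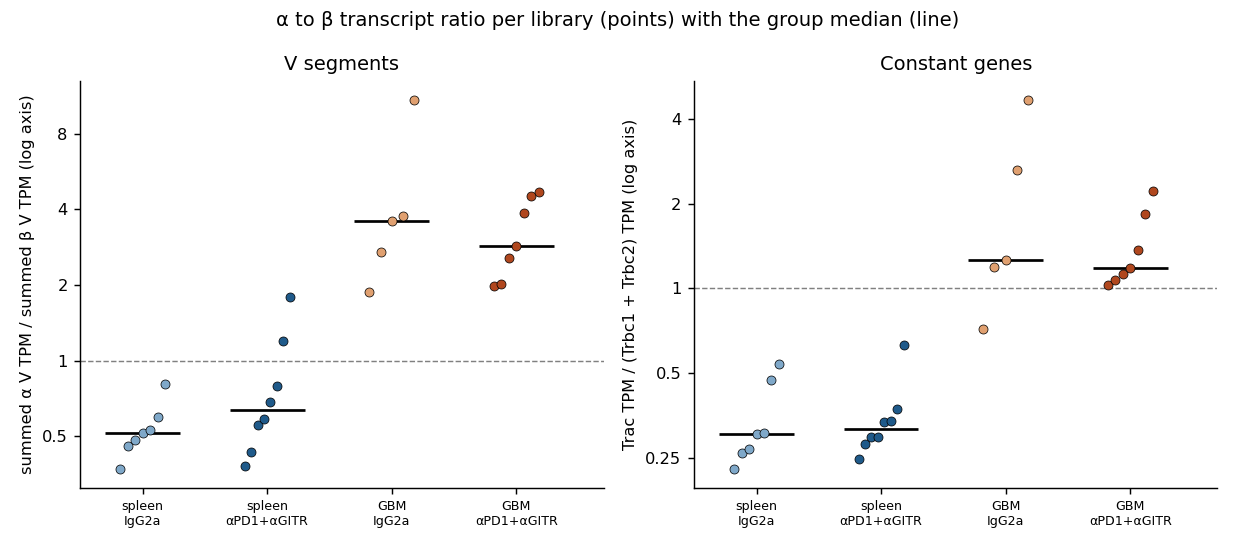
Ratio of summed α to summed β V segment TPM (left) and of Trac to Trbc1 plus Trbc2 TPM (right) in each of 27 libraries, on log axes, with points as libraries, lines as group medians and a dashed line at 1. All 12 GBM libraries lie above all 15 splenic libraries in both panels, and the treatments overlap within each tissue.

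On the log2 scale the α to β V ratio was higher in GBM than in spleen by 2.83 (SE 0.44, n = 5 against 7) after IgG2a and by 2.10 (SE 0.33, n = 7 against 8) after αPD1 + αGITR, beside a pooled SD between libraries of 0.66 and 0.65. Without the libraries that stand apart these differences were 2.22 and 2.29. The treatments differed by less than the spread between libraries, with a log2 difference of -0.30 (SE 0.47) in GBM and 0.43 (SE 0.29) in spleen. In GBM the sign turned to 0.09 without the library tumor_369_a and to 0.21 without the libraries that stand apart. In spleen the difference was 0.24 without 72_b and 0.14 without the libraries that stand apart. The ratio was computed after the data had been seen and is given without a test.

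The constant genes, which no V segment rule selects, gave the same separation. Trac, the single α constant gene, divided by the sum of Trbc1 and Trbc2, the β constant genes, ranged from 0.228 to 0.632 in the 15 splenic libraries and from 0.715 to 4.69 in the 12 GBM libraries. The log2 difference between the tissues was 2.36 (SE 0.51) after IgG2a and 2.00 (SE 0.22) after αPD1 + αGITR, or 2.53 and 2.13 without the libraries that stand apart. Trac itself was lowest at 52.7, 140 at the median and highest at 495 TPM in treated spleen, and 476, 637 and 1399 TPM in treated GBM, where 6 of 7 libraries were above every treated splenic library. By limma on log2(TPM + 1), Trac was higher in treated GBM than in treated spleen by 2.23 (SE 0.49, adjusted p = 0.00598, exact permutation p = 0.000932). By contrast, Trbc1 (0.36, adjusted p = 0.656) and Trbc2 (0.19, adjusted p = 0.794) did not pass. With the label shared across tissues as a replicate block, Trac did not pass either (2.17, limma adjusted p = 0.217). After IgG2a, Trac differed between the tissues by 1.89 (limma adjusted p = 0.409), and Trbc1 and Trbc2 by -1.02 and -0.35, none of which passed.

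The sums behind the ratios overlapped between the tissues. Summed α V segments were at 36.1 to 858 TPM in spleen and 306 to 2417 TPM in GBM after IgG2a, and at 79.1 to 911 and 515 to 1406 TPM after αPD1 + αGITR. Summed β V segments were at 70.3 to 1068 TPM in spleen and 85.6 to 239 TPM in GBM after IgG2a, and at 95.1 to 762 and 109 to 709 TPM after treatment. It is thus the ratio within a library, and not the level of a chain, that separated them. In bulk libraries, fewer cells with a transcript and less of it per cell cannot be told apart.

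Markers of other cells were summed in each group as well. The summed level of 8 macrophage and microglia genes had medians of 25.9 and 52.2 TPM in IgG2a and treated spleen and 118.6 and 75.97 TPM in IgG2a and treated GBM, with single libraries up to 3775 TPM. Of these genes 8 averaged above 1 TPM in each group except IgG2a spleen, where 6 did. The 17 γδ T cell genes found in the table summed to at most 71.6 TPM, in a library of IgG2a GBM. In that group Tcrg-V6, Trdv1 and Tcrg-C1 reached 23.1, 22.2 and 19.0 TPM, although Trdc was at 0 in all 12 GBM libraries. The median sums were 1.92 and 10.2 TPM in IgG2a and treated spleen and 3.37 and 0.32 TPM in IgG2a and treated GBM. The B cell list of 6 genes, with medians from 132 to 275 TPM, was carried mostly by Ighm. The 2 CD8 genes summed to at most 36.6 TPM and the 4 invariant NKT genes to at most 33.7 TPM. The 7 αβ T cell genes and the 5 CD4 and Treg genes had median sums of 1324 and 592 TPM in IgG2a GBM, 1911 and 896 TPM in treated GBM, 1174 and 317 TPM in IgG2a spleen and 926 and 412 TPM in treated spleen. The part of these cells in the V segment results was not tested.

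The number of V segments in use was read as the segments above 1 TPM, and the evenness of their use as the effective number, the exponential of the Shannon entropy of the shares within a chain, which equals the number of equally used segments that would give the same entropy. For the α chain, 9, 40 and 72 segments (lowest, median and highest library) were above 1 TPM in spleens of the IgG2a arm, and 27, 38.5 and 61 in those of the αPD1 + αGITR arm. In GBM after IgG2a the 5 libraries had 25, 45, 55, 55 and 64, and after αPD1 + αGITR 27, 73 and 82 were the lowest, median and highest. Of the 7 treated GBM libraries, 6 had more α segments above 1 TPM than every IgG2a GBM library and than every treated splenic library. The exception was 73_a, with 27.

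**Figure D2:**
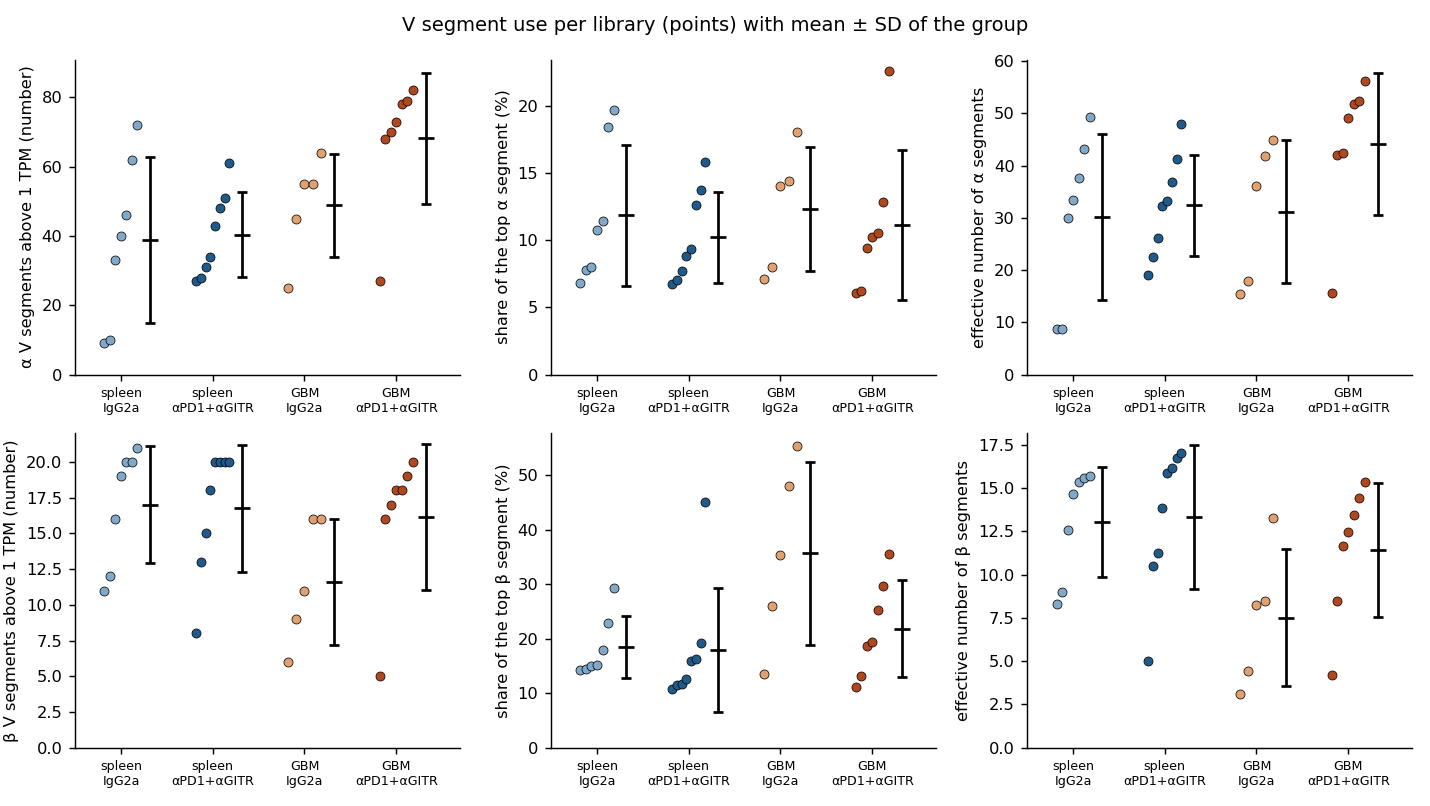
Number of V segments above 1 TPM, share of the top segment and effective number of segments for the α chain (upper row) and the β chain (lower row), with each point a library and bars the mean ± SD of the group. In the α panels 6 of 7 treated GBM libraries have 68 segments or more, and in the β panels the IgG2a GBM group has the lowest mean number of segments and the highest mean top share.

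The means were 68.1 ± 18.8 (SD, n = 7) in treated GBM, 48.8 ± 14.9 (n = 5) in IgG2a GBM, 40.4 ± 12.3 (n = 8) in treated spleen and 38.9 ± 23.96 (n = 7) in IgG2a spleen. Treated GBM thus exceeded IgG2a GBM by 19.3 segments (SE 9.75) and treated spleen by 27.8 (SE 8.34), while the treatments in spleen differed by 1.52 (SE 10.1). Without the libraries that stand apart treated GBM exceeded IgG2a GBM by 10.1 and treated spleen by 26.4 segments, and the difference in spleen turned to -8.89. These counts treat each copy as a segment. With the d and n copies merged under 57 names, the means were 36.3, 27.8, 25.5 and 24.6 in the same order, and summed into 23 families they were 15.7, 13.6, 12.6 and 12.9, so that the excess of treated GBM over treated spleen was 10.8 names and 3.09 families.

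The effective number of α segments was 44.2 ± 13.7 in treated GBM, 31.2 ± 13.7 in IgG2a GBM, 32.4 ± 9.72 in treated spleen and 30.2 ± 16.0 in IgG2a spleen. Its differences of 13.0 (SE 8.02) between the GBM groups and 11.8 (SE 6.204) between the treated tissues were close to the pooled SD of 13.7 and 11.7, and the groups overlapped. These differences were 3.23 and 10.9 without the libraries that stand apart. The top α segment held 11.3% ± 4.53 of the α V signal over all 27 libraries, from 6.06% in the treated GBM library 72_a to 22.6% in the treated GBM library 73_a, and group means lay between 10.2% and 12.3%.

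The β chain gave another order. The number of β segments above 1 TPM was 17.0 ± 4.08 in IgG2a spleen, 16.8 ± 4.43 in treated spleen, 11.6 ± 4.39 in IgG2a GBM and 16.1 ± 5.08 in treated GBM. The 5 IgG2a GBM libraries had 6, 9, 11, 16 and 16, and the 7 IgG2a splenic libraries had 11 at the lowest, 19 at the median and 21 at the highest. The effective number of β segments was 13.0 ± 3.17 in IgG2a spleen against 7.51 ± 3.97 in IgG2a GBM, a difference of -5.51 (SE 2.14, pooled SD 3.51), with 3 of 5 GBM libraries below every IgG2a splenic library. After αPD1 + αGITR the effective number was 13.3 ± 4.17 in spleen and 11.4 ± 3.88 in GBM, a difference of -1.88 (SE 2.08), which was -0.68 without the GBM library 73_a. Between the GBM groups it was higher by 3.92 (SE 2.30, pooled SD 3.92) after treatment.

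The top β segment held 35.6% ± 16.7 of the β V signal in IgG2a GBM and 21.8% ± 8.84 in treated GBM, beside 18.4% ± 5.69 and 17.9% ± 11.4 in IgG2a and treated spleen. In IgG2a GBM the 5 shares were 13.5%, 26.0%, 35.4%, 47.9% and 55.3%, so a single β segment held 26.0% or more of the signal in 4 of 5 libraries. The groups overlapped in each of these measures. Without the libraries that stand apart, the β effective number was different by -4.77 between IgG2a GBM and IgG2a spleen and the top share higher by 9.61 percentage points, while the GBM groups differed by 1.43 and by -3.12 percentage points. The effective number then differed by -3.06 between the treated tissues.

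Libraries with less V signal showed fewer segments. Among the 9 libraries with the lowest summed α V level, 36.1 to 243 TPM, between 9 and 43 α segments were above 1 TPM, with a median of 31, whereas the 9 with the highest level, 641 to 2417 TPM, had 45 to 82, with a median of 72. The median effective number was 26.1, 37.7 and 48.0 in the 9 lowest, 9 middle and 9 highest libraries. For the β chain the median number above 1 TPM was 11, 17 and 19 in the libraries with the lowest, middle and highest β V sums. Ordered instead by the number of genes above 1 TPM, the lowest, middle and highest 9 had median α counts of 43, 55 and 55. Since summed α V level was higher in GBM, level and group moved together, and the part of the level in the counts was not tested.

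**Figure D3:**
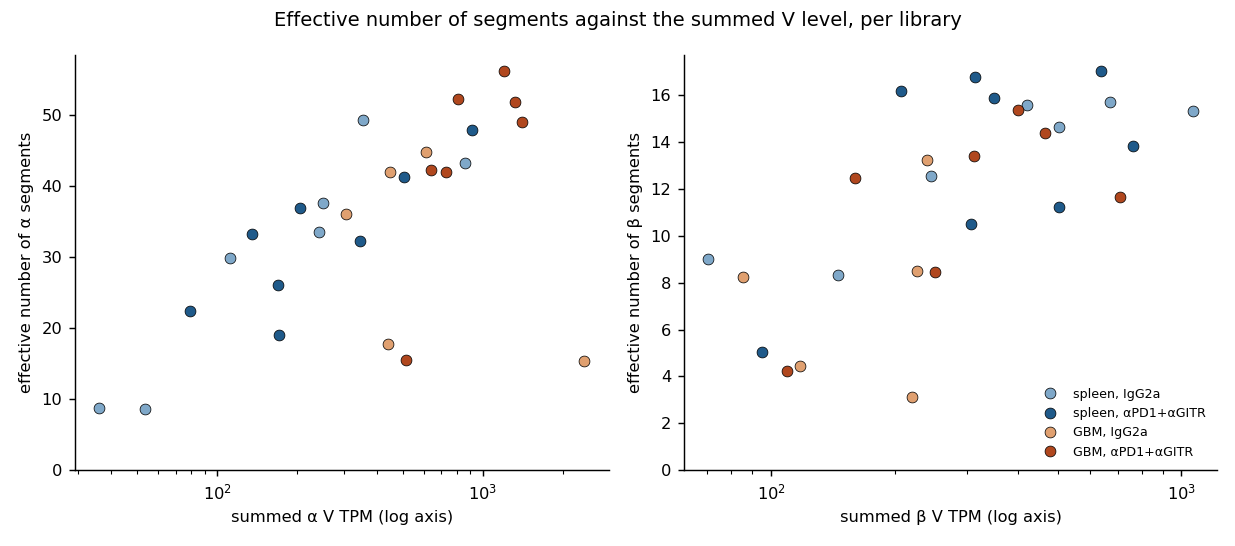
Effective number of α (left) and β (right) V segments against the summed V segment TPM of the chain, on a log axis, with each point a library coloured by group. The 3 GBM libraries tumor_369_a, 79_a and 73_a lie at effective α numbers of 15.4 to 17.8 although their α sums are 441 to 2417 TPM.

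In some libraries a few segments held most of the signal of a chain. The IgG2a GBM library tumor_369_a had the highest α sum, 2417 TPM, and an effective α number of 15.4, with Trav7d-2 at 17.99%. Its β signal of 221 TPM was held by Trbv20 at 55.3% and Trbv2 at 33.8%, which left an effective β number of 3.13, the lowest of all 27 libraries. The treated GBM library 73_a, which is not among those that stand apart by markers or genes detected, had 5 β segments above 1 TPM at a β sum of 109 TPM, of which Trbv14 held 29.7%, Trbv19 29.1% and Trbv13-2 27.04%. Its top α segment was Trav4-4-dv10 with 22.6%. The treated splenic library 72_b had 8 β segments, with Trbv12-1 at 45.1% and Trbv21 at 17.6%, at a β sum of 95.1 TPM. All 3 were among the 9 libraries with the lowest β sums, of 70.3 to 221 TPM.

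A few β segments carried most of the β signal. By the mean of the 4 group means, Trbv3 held 10.3% of the β V signal, Trbv1 9.37%, Trbv13-2 8.55%, Trbv19 7.07% and Trbv5 7.04%, and the 8 leading segments together, with Trbv20, Trbv15 and Trbv12-1, held 60.5%. Trbv3 was above 1 TPM in 24 libraries, with a share of 0% at the lowest, 10.6% at the median and 35.5% at the highest. Trbv1 was the top β segment in 6 libraries, Trbv3 in 4, and Trbv12-1 and Trbv13-2 in 3 each, and 12 different β segments led at least 1 library. Among the functional β segments, Trbv30 was listed above 0 in 1 library alone, of treated GBM, at 14.7 TPM.

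**Figure D4:**
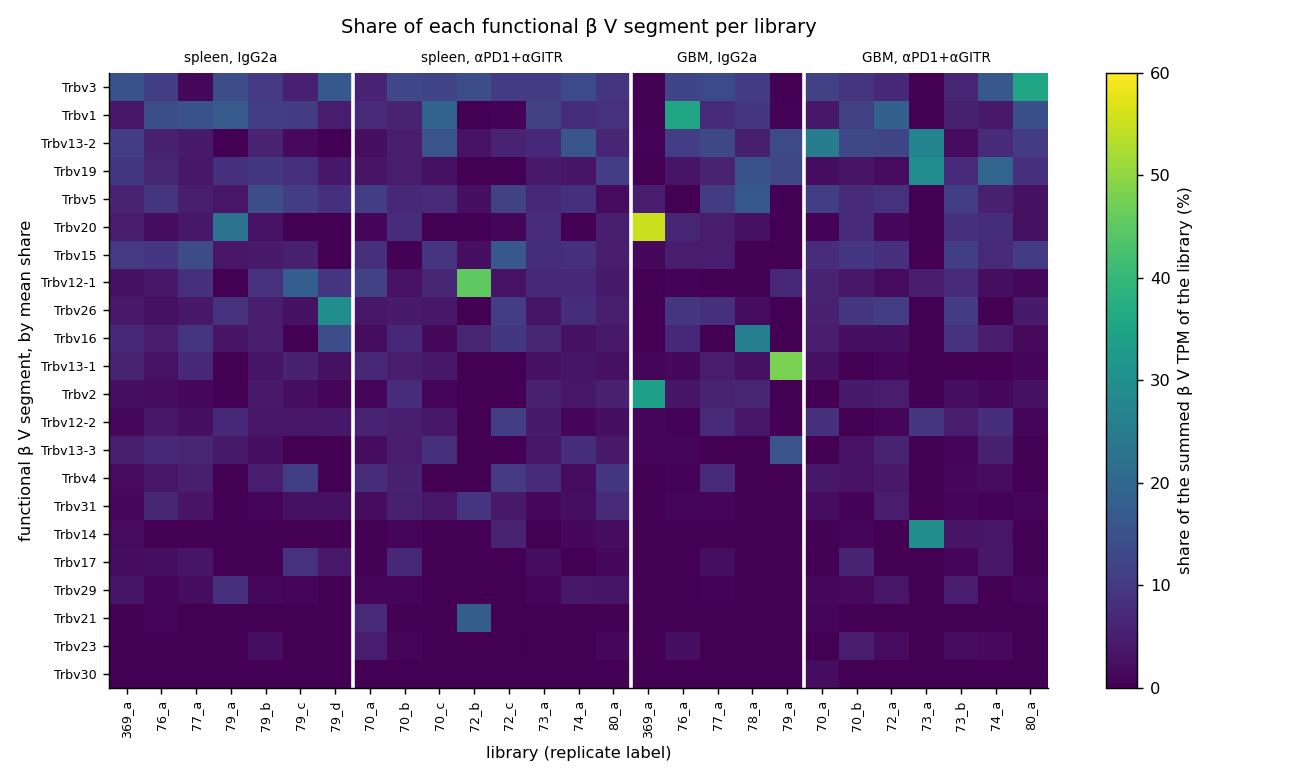
Share of each of the 22 functional β V segments (rows, by mean share) in the summed β V TPM of each library (columns, by group), from 0 to 60%. Most libraries spread their signal over many rows. Single bright cells mark Trbv20 in tumor_369_a, Trbv13-1 in 79_a and Trbv1 in 76_a of IgG2a GBM. Others are Trbv3 in 80_a of treated GBM and Trbv12-1 in 72_b of treated spleen.

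Each library of IgG2a GBM was led by a different β segment. Trbv20 held 55.3% of the β signal in its library tumor_369_a and at most 6.11% in the other libraries of that group, Trbv13-1 held 47.9% in 79_a, Trbv1 35.4% in 76_a and Trbv16 26.0% in 78_a. The fifth library, 77_a, was led by Trbv3 at 13.5%. In treated GBM, Trbv3 led 80_a at 35.5%, and Trbv13-2 led both 70_a, at 25.3%, and 70_b, at 13.1%.

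The α segments were used more evenly and with less in common. The 8 α segments with the highest mean share held 20.7% of the α V signal together, led by Trav7-2 with 3.37% and Trav4-4-dv10 with 2.37%, and 21 different α segments led the 27 libraries. Trav7-2 led 5 of them, in IgG2a spleen, IgG2a GBM and treated GBM, and was listed at 0 in 8. Names with dv mark segments that can also join the δ chain. Along the locus, the 42 segments next to the J segments held 41.7% ± 9.40 of the α V signal over all libraries, the 52 in the middle 40.6% ± 9.59 and the 34 farthest from them 17.7% ± 6.86. The share of the far segments ranged from 0% to 30.3% and its group means from 13.6% in IgG2a spleen to 21.8% in treated spleen, so position did not set the groups apart.

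Over all pairs of libraries, V use was more alike in the β than in the α chain. The similarity of V shares between a pair of libraries (Bray-Curtis, where 100% is identical use) had a median of 53.3% over the 351 pairs for β and 28.7% for α. Within groups the median β similarity was 54.7% in IgG2a spleen, 57.1% in treated spleen and 55.5% in treated GBM, but 20.3% in IgG2a GBM, where pairs ranged from 2.95% to 58.5%. The median α similarity was 17.2%, 27.1%, 40.0% and 24.4% in IgG2a spleen, treated spleen, treated GBM and IgG2a GBM. The low β similarity in IgG2a GBM rested on the libraries tumor_369_a and 79_a, since without the libraries that stand apart its 3 remaining pairs had a median of 56.1% for β and 49.9% for α. The medians for β were then 67.3% in IgG2a spleen and 58.0% in treated spleen, and those for α 33.8% and 29.2%. Libraries of the tissues that carry the same label had a median β similarity of 55.3% over 9 pairs, beside 52.9% over 82 pairs with other labels.

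Single V segments were then compared by limma on log2(TPM + 1), among genes with a mean above 10 TPM in at least 1 of the groups compared. A segment that passed this filter only through the group where it is high had to differ, so counts of the segments tested are given as a description beside those of all genes, and the p-values of such segments are to be read with this selection. Each comparison of the tissues shares a group with each comparison of the treatments.

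Between the treated tissues, 56 of 163 members were tested, of which 40 were α and 16 were β. At an unadjusted p under 0.05, 19 α segments were higher in GBM and 2 β segments, Trbv13-1 and Trbv31, were lower, beside 34% of all 7506 genes higher and 6.33% lower. At an adjusted p under 0.05, 12 members passed, beside 17.5% of all genes called in either direction. All 12 were α, higher in GBM and past the filter through GBM alone. The share of members higher, 19 of 56, and that passing adjustment, 12 of 56, were near those of all genes. Since 39 of 40 α segments but 3 of 16 β segments had a positive difference, the medians were 1.60 for α and -0.56 for β, beside 0.95 for all genes. The β part rested on the GBM library 73_a, without which 8 of 16 β segments had a positive difference, with a median of -0.0036, while 43 of 43 α segments did, with a median of 1.87. The medians were 1.64 and -0.89 without the libraries that stand apart. Quantile normalization moved the median of all genes from 0.95 to 0.15, and the medians of α and β were then 0.99 and -1.24. Without the filter, 94 of 111 α segments listed above 0 were higher in GBM, with a median difference of 0.94, and 11 of 27 β segments, with a median of -0.33, beside 18105 of 42667 for all features.

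**Figure D5:**
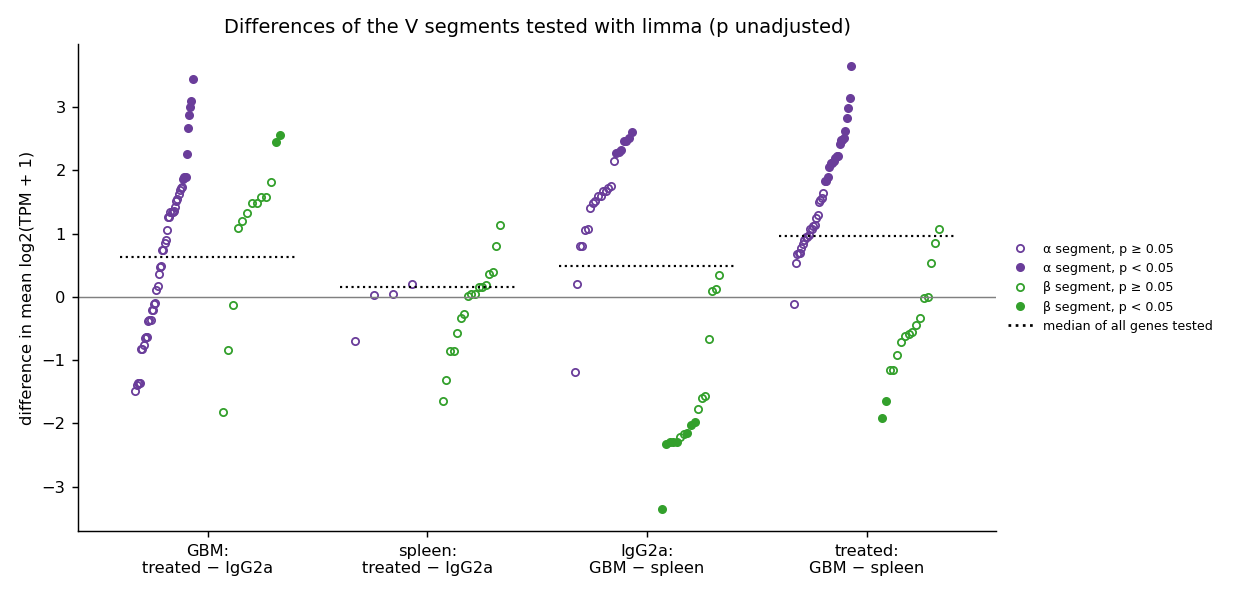
Difference in mean log2(TPM + 1) of each V segment tested by limma, for α (purple) and β (green) segments in the 4 comparisons, with filled points at an unadjusted p under 0.05 and a dotted line at the median of all genes tested. In both comparisons of GBM with spleen most α points lie above 0 and most β points below it, with medians of 1.67 and -2.03 after IgG2a and 1.60 and -0.56 after treatment, although without the treated GBM library 73_a only 8 of 16 β segments were above 0 after treatment.

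Trav7-4 had the largest rise. It was at 8.84, 32.3 and 132 TPM (lowest, median and highest) in treated GBM and at 0, 0 and 30.5 TPM in treated spleen, where it was listed at 0 in 5 of 8 libraries. Every treated GBM library thus had Trav7-4, and 4 of 7 were above every treated splenic library. The difference was 3.65 (SE 0.81, limma adjusted p = 0.00618, exact permutation p = 0.00342). Trav7-4 entered the test through GBM alone, with a mean of 41.8 TPM against 6.44 TPM in treated spleen. With no filter on low values its limma adjusted p was 0.0497. Trav7-4 lies at chr14:53461099-53461738, in a family whose d and n copies differ from it by few bases.

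Trav13d-1 was at 7.91, 23.5 and 37.1 TPM in treated GBM and at 0, 0.96 and 10.9 TPM in treated spleen, with 5 of 7 GBM libraries above every treated splenic library. It was higher by 2.99 (SE 0.68, limma adjusted p = 0.00726, exact permutation p = 0.00155). Trav13d-1 too entered the test through GBM alone, and with no filter on low values its limma adjusted p was 0.0341. Trav21-dv12 was at 0, 10.2 and 47.5 TPM in treated GBM and was listed at 0 in all treated splenic libraries but 72_c, which had 4.09 TPM. It was higher by 3.15 (SE 0.79, limma adjusted p = 0.0119). Only the GBM library 73_a, with Trav21-dv12 at 0, overlapped with spleen.

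Trav12-2, at 0, 23.5 and 72.7 TPM in treated GBM and at most 4.6 TPM in treated spleen, was higher by 2.83 (SE 0.78, limma adjusted p = 0.0198). The pair Trav14d-1 and Trav14n-1, which has 1 shared value, was at 2.13, 12.1 and 22.4 TPM in treated GBM and at most 6.39 TPM in treated spleen. The remaining calls were the pair Trav6d-6 and Trav6-6, Trav9-2, Trav13-1, Trav7-5 and Trav17, with limma adjusted p between 0.0327 and 0.0445. Trav17 was listed at 0 in all 8 treated splenic libraries and reached 44.9 TPM in treated GBM, so no fold is given for it. Because 2 pairs share their values, the 12 calls rest on 10 separate measurements. The count fell to 7 without the libraries that stand apart and to 4 with no filter on low values. Of these 4, 3 were among the 12, Trav7-4, Trav13d-1 and Trav21-dv12 (limma adjusted p = 0.0497, 0.0341 and 0.0428). With the label shared across tissues as a replicate block, the count was 0. Under quantile normalization 2 α segments, Trav7-4 and Trav13d-1, passed as higher, and 3 β segments, Trbv31, Trbv13-1 and Trbv12-1, passed as lower (limma adjusted p = 0.0153, 0.0315 and 0.0270). Leaving out the treated splenic library 70_a or the treated GBM library 70_b gave 6 calls, and leaving out 70_b or 72_b of spleen or 70_a, 72_a or 73_b of GBM gave 7.

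Among the β segments, Trbv31 was at 0, 2.66 and 15.0 TPM in treated GBM and 4.24, 14.6 and 47.0 TPM in treated spleen, with 5 of 7 GBM libraries below every treated splenic library. Its difference of -1.66 (SE 0.67) did not pass (limma adjusted p = 0.0773, exact permutation p = 0.0260 before adjustment). Trbv13-1, listed at 0 in 4 of 7 treated GBM libraries and in 2 of 8 treated splenic libraries, differed by -1.92 (limma adjusted p = 0.103).

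After IgG2a, 40 members were tested between GBM and spleen, of which 23 were α and 17 were β. At an unadjusted p under 0.05, 7 α segments were higher in GBM and 8 β segments were lower, beside 7.63% of all 7380 genes higher and 2.3% lower. By limma no member passed the adjusted threshold, which 0.569% of all genes did, and the lowest adjusted p of a member was 0.140. Of the α segments 22 of 23 had a positive difference, with a median of 1.67, and of the β segments 3 of 17, with a median of -2.03, beside 0.48 for all genes. These medians were 1.06, -1.66 and 0.13 without the libraries that stand apart. Without the filter, 71 of 112 α segments were higher in GBM, with a median difference of 0.24. Of the β segments 5 of 25 were, with a median of -1.60, beside 21232 of 41152 for all features. The 15 calls at an unadjusted p were 7 without the splenic library 76_a and 8 without 77_a. They were 4 with the label shared across tissues as a replicate block.

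Trbv12-1 had the largest difference in either direction in this comparison. It was at 0, 0, 0, 1.34 and 8.14 TPM in the 5 IgG2a GBM libraries and at 0, 26.7 and 92.4 TPM (lowest, median and highest) in IgG2a spleen. The groups overlapped through the splenic library 79_a, which was at 0. The difference was -3.36 (SE 1.01, limma adjusted p = 0.140, exact permutation p = 0.0202 before adjustment). Trbv12-1 passed in 3 of 20 settings, with limma adjusted p from 0.0166 to 0.801, and those 3 were without 79_a, without the libraries that stand apart, at the lowest p, and under quantile normalization. Trbv31 was at 0, 0, 0, 1.82 and 1.99 TPM in IgG2a GBM and at 0, 6.41 and 42.4 TPM in IgG2a spleen. Trbv17, Trbv5, Trbv15, Trbv26, Trbv3 and Trbv1 made up the rest of the 8, with differences from -1.98 to -2.30.

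The 7 α segments that were higher in IgG2a GBM at an unadjusted p under 0.05 were the pair Trav3d-3 and Trav3n-3, Trav8-2, Trav8n-2, Trav12-2, Trav12-3 and Trav5-4, with differences from 2.27 to 2.61 and limma adjusted p of 0.353 or more. Trav3d-3 was at 1.19, 5.98, 15.8, 16.1 and 61.9 TPM in the 5 GBM libraries and at most 4.70 TPM in IgG2a spleen, so that 4 of 5 were above every IgG2a splenic library. Trav8n-2 and Trav12-2 owed their highest values, 164 and 149 TPM, to the library tumor_369_a.

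Between the treatments in GBM, 63 members were tested, 50 α and 13 β. At an unadjusted p under 0.05, 11 were higher after αPD1 + αGITR and none was lower, beside 17.4% of all 7848 genes higher and 4.91% lower. The share of members called, 11 of 63, was thus near that of all genes past the filter. By limma no member and no gene passed the adjusted threshold, 0% of those tested. The medians were 0.79 for α and 1.48 for β, beside 0.62 for all genes, and under quantile normalization 0.12, 0.90 and 0.13. Without the libraries that stand apart they were 0.71, 0.49 and 0.52, so the β median was then no higher than that of all genes. Trav13d-1 was at 0, 0, 0.44, 1.68 and 3.88 TPM after IgG2a and at 7.91 to 37.1 TPM after αPD1 + αGITR, so that the groups did not overlap. Its difference was 3.44 (SE 0.68, limma adjusted p = 0.0977), and its exact permutation p of 0.00126 is the smallest that 5 against 7 libraries can give. It entered the test through treated GBM alone, with a mean of 20.7 TPM against 1.2 TPM after IgG2a. With no filter on low values its limma adjusted p was 0.348. Trav13d-1 passed in 3 of 19 settings, with limma adjusted p from 0.0410 to 0.348, and those 3 were without the IgG2a library 79_a, without the treated library 73_b and with the number of genes above 1 TPM as a covariate. The others were Trav7-4 (3.10), Trav7-5 (3.00), Trav13n-1, Trav13-2, Trav13-1, the pair Trav14d-2 and Trav14n-2, Trav9-2, Trbv12-1 (2.56) and Trbv15 (2.45), which all had limma adjusted p of 0.0977 or more. Without the library 73_a, 19 of 67 members had an unadjusted p under 0.05, beside 1175 of 7792 genes higher and 342 lower. Without the libraries that stand apart 7 of 56 had, beside 1115 of 7018 genes higher and 313 lower.

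Trbv12-1 was at 3.09, 5.53 and 42.8 TPM (lowest, median and highest) in treated GBM, where no library was at 0, and at 0 in 3 of 5 libraries after IgG2a. Trbv15 was at 0 in the treated GBM library 73_a and above every IgG2a GBM library in the other 6.

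Between the treatments in spleen, 21 members were tested, 4 α and 17 β, and none had an unadjusted p under 0.05, beside 1.49% of all 6634 genes higher and 1.04% lower. By limma no gene passed the adjusted threshold, which is 0% of those tested, and the lowest unadjusted p of a member was 0.0752, for Trbv17. The medians were 0.04 for both chains, beside 0.15 for all genes, and turned negative for both under quantile normalization. They were -0.92 for α and -0.63 for β, beside -0.20 for all genes, without the libraries that stand apart. Without the filter 63 α segments were higher and 51 lower after treatment, and 15 β segments were higher and 10 lower. Of all 42883 features listed above 0, 26278 were higher and 16605 lower.

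The difference of the treatment effects between GBM and spleen was tested as an interaction over all 4 groups. At an unadjusted p under 0.05, 8 of 67 members tested had a more positive treatment difference in GBM than in spleen, and 1 a more negative one. These counts stand beside 6.8% and 5.35% of all 8687 genes. By limma none passed the adjusted threshold, which 0% of all genes did. The largest were Trav7-5 (3.70, limma adjusted p = 0.317), Trav7-4 (3.49) and Trav13d-1 (3.47, limma adjusted p = 0.314), and Trav12-3 was the 1 segment in the other direction (-2.79). Treatment effects on single segments were therefore not shown to differ between the tissues.

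Other genes of the receptor were followed in a list of 87 genes, the constant genes, the CD3 chains that carry the signal of the receptor, the genes of V(D)J recombination and the J and D segments. The 7 that passed the filter were Trac, Trbc1, Trbc2, Cd3d, Cd3e, Cd3g and Cd247, so no J or D segment was tested. Between the treated tissues 4 of 7 were higher in GBM at an unadjusted p under 0.05, and 3 at an adjusted p under 0.05, which were Trac, Cd3e (1.57, limma adjusted p = 0.0469) and Cd247 (1.44, limma adjusted p = 0.0394). These counts stand beside 34% of all genes higher and 17.5% called after adjustment. With the label shared across tissues as a replicate block, none of the 3 passed (limma adjusted p = 0.217, 0.302 and 0.269). The IgG2a tissues had 1 of 7, Trac, and GBM after treatment 1 of 7, Trbc1 (1.57, limma adjusted p = 0.151), at an unadjusted p under 0.05, beside 7.63% and 17.4% of all genes higher. In spleen none passed.

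Segments of unconventional T cells were followed by name. Trav11, the α segment of invariant NKT cells, was listed at 0 in all 27 libraries, and its copy Trav11d was at 0 in 19, with 21.5 TPM at most, in the treated splenic library 74_a. Trav1, the α segment of MAIT cells, was listed at 0 in 21 libraries and reached 14.4 TPM in the same library.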

How the data were processed

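Expression was measured by Smart-Seq2 RNA-seq of bulk sorted Treg cells. The submitters' processing notes name bcl2fastq, TopHat2 and mm10, and the authors estimated TPM per gene with RSEM. The deposited values are TPM plus 1, entered here as a score, since the lowest entry was 1 and columns kept the TPM total once 1 was taken off. The table has no read counts, so depth, counting intervals and detection limits are unknown. How reads that match several V segments were divided is not given in the sources used here, and TPM scaled to whole gene models may not reflect rearranged transcripts.

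Groups were taken from the labels, and 27 of 28 libraries were used. A further 1 column of values, with no library name, was not used. V segments, the 87 receptor genes and the marker lists (αβ T, CD4 and Treg, CD8, γδ T, invariant NKT, B cell, macrophage and microglia) were chosen with earlier results of these data known. Shares were taken within a chain. Segments named were the 8 of each chain with the highest mean share, those leading 2 or more libraries, those with an adjusted p under 0.05, the 3 largest rises and falls per comparison at an unadjusted p under 0.05, Trav1, Trav11, Trav11d and the constant genes. A few others were named after their values were seen: segments that led a single library or completed a small count, Trbv30, and the α to β ratio.

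Genes with a mean above 10 TPM in at least 1 group were tested with limma 3.58.1 in R 4.3.3 (log2(TPM + 1), empirical Bayes with trend, two-sided, Benjamini-Hochberg over all genes tested), after the code had been tested on simulated data. Fold changes on this scale understate the change of low genes. Named segments also had a two-sided exact permutation test. Tables were handled in Python 3.11.15 with pandas 2.3.3 and numpy 2.4.6. Measures over the segments, such as effective numbers and ratios, were given without a test. P-values measure the spread between libraries. The submitters' design text gives a different mouse for each spleen and each tumor, but the study counts fewer animals than there are splenic libraries, and numbers recur in the labels within a tissue. What these numbers mark is not given in the sources used here, and if libraries shared a mouse the p-values would be too small. Sequences and annotation were from GENCODE M21. Alternatives covered thresholds, merged copies, pseudocounts, filters, scalings, a covariate, single libraries left out and a replicate block, and, chosen after seeing the data, leaving out together the 5 libraries that stand apart.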

Additional observations from a re-analysis of the deposited data

Results flagged for a closer look

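Of 186 sets of 4 to 10 libraries checked for a single extreme library (Dixon's test at 95%), 24 had one. Chance gives about 1 in 20 for values that vary continuously, a rate that does not apply to 10 of the 24, where all other libraries of the group were at 0. The treated GBM library 73_a stood below its group with 27 α segments above 1 TPM (next 68), an effective α number of 15.54 (next 42.02) and 5 β segments above 1 TPM (next 16), and above it with a top α share of 22.56% (next 12.81%). On the log2(TPM + 1) scale, Trbv15 and Trbv3 were at 0 in this library, where the next lowest treated GBM libraries had 3.674 and 4.426. The treated splenic library 72_b had a top β share of 45.12% (next 19.15%) and a log2 ratio of Trac to Trbc1 plus Trbc2 of -0.6557 (next -1.418).

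In the IgG2a GBM library tumor_369_a, log2(TPM + 1) was 7.224 for Trav12-2 (next 3.676) and 7.366 for Trav8n-2 (next 2.759), the highest of the group, and 3.783 for Trbc1 (next 5.764) and 0 for Trbv19 (next 3.091), the lowest. Trav7-5 was at 6.629 in the IgG2a splenic library 79_b, where the next had 2.648. Trav11d was at 4.494 in treated splenic library 74_a (next 1.585), at 2.84 in IgG2a splenic library 76_a and at 1.521 in IgG2a GBM library 76_a. Trav1 was at 3.943 in treated splenic library 74_a, 2.043 in IgG2a splenic library 76_a and 1.251 in IgG2a GBM library 77_a. Trav13d-4 was at 3.018 in IgG2a splenic library 79_a and 1.88 in treated GBM library 73_b, Trav21-dv12 at 2.348 in treated splenic library 72_c, and Trav8-2 at 3.61 in IgG2a splenic library 76_a and 3.367 in treated splenic library 80_a. The cause was not tested for any of these.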

How the results depend on the processing

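Over the measures and counts, 858 of 892 alternative values kept their direction and side of the threshold or stayed within the spread between libraries, as did 1986 of 2094 values of single segments, and no called value reversed. The log2 α to β V ratio stayed higher in GBM under every setting run, at 2.45 to 3.08 after IgG2a and 1.97 to 2.29 after αPD1 + αGITR when single libraries were left out, as did that of the constant genes, at 1.99 to 2.67 and 1.88 to 2.13. The excess of treated GBM over treated spleen in α segments above 1 TPM was 10.8 with d and n copies merged and 3.09 by family, where fewer names are counted. With no filter on low values, all features at an unadjusted p under 0.05 by limma were counted beside the members. For treatment in GBM 1723 of 40755 features rose and 1106 fell, and in spleen 481 of 42883 rose and 328 fell. Between the treated tissues 3299 of 42667 had a positive difference and 1319 a negative one, and 244 and 12 passed adjustment. Members at an unadjusted p under 0.05 numbered 22 of 135 for treatment in GBM and 2 of 139 for treatment in spleen. Between the treated tissues they numbered 33 of 138, and 4 passed adjustment. Under quantile normalization they numbered 1 for treatment in spleen and 12 between the treated tissues, of which 6 were higher and 6 lower in GBM (19 and 2 without this scaling), with 5 adjusted calls there, 2 α segments higher and 3 β segments lower, and 1 between the IgG2a tissues. A pseudocount of 10 gave 8 between the IgG2a tissues, and the number of genes above 1 TPM as a covariate gave 1 adjusted call for treatment in GBM. Without the libraries that stand apart, 7 and 1 had an unadjusted p under 0.05 for treatment in GBM and in spleen, and 1 and 7 passed adjustment between the IgG2a and the treated tissues. Leaving out single libraries gave 8 to 19, 0 to 1, 7 to 17 and 17 to 22 at an unadjusted p for treatment in GBM, treatment in spleen, IgG2a tissues and treated tissues, and 0 to 1, 0, 0 to 1 and 6 to 14 adjusted calls. The adjusted call for treatment in GBM was Trav13d-1, also without IgG2a GBM 79_a or treated GBM 73_b, and that between the IgG2a tissues was Trbv12-1, also without splenic library 79_a. Beyond the smaller number of libraries or genes, the cause was not tested.

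Over 9 pairs of libraries that share a label across tissues, the correlation of deviations ran from -0.16 to 0.18, with 1 above 0.1. Of these pairs 2 matched their own label best. These values cannot tell whether a shared label marks the same mouse, because the tissues of a mouse need not deviate alike. With the label as a replicate block, 4 members between the IgG2a tissues and 12 between the treated tissues had an unadjusted p under 0.05, and 0 passed adjustment. Between the treated tissues 1 of 7506 genes then passed, and Trac, Cd3e and Cd247 did not (limma adjusted p = 0.217, 0.302 and 0.269). With depth unknown, a segment listed at 0 may be unused or missed, and few segments in a library of low V signal cannot be told from few clones.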
